A study of Saccharomyces cerevisiae with 9 samples.

Results

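The genes described here are those of the wine yeast whose RNA level was lower at each step of proanthocyanidin (PAs) concentration, from 0 to 0.1 g/L and again from 0.1 to 1.0 g/L. There were 100 such genes among the 5859 in the tables. They were chosen by the measured levels themselves: the group means at the 3 concentrations had to be above 0, the highest had to reach 50 normalized counts, and each step had to lower the mean at least 1.5-fold. Because the choice used these values, every level and fold below is a description and none was tested.

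AWRI R2 is a commercial wine strain of Saccharomyces cerevisiae, the budding yeast that ferments grape juice. It was fermented in a synthetic medium (MSM) composed to resemble grape juice, without PAs (0 g/L) in group A, with 0.1 g/L PAs in group B and with 1.0 g/L in group C. Each group had 3 biological replicates, sampled at 72 h in stationary phase, and group A was given ethanol without PAs, the solvent in which groups B and C received them. The files hold, for each gene, the mean normalized count over the 6 libraries of 2 groups at a time, so the mean of each group was solved from the 3 pairwise means, and no value of a single library, no depth and no spread between replicates stands behind it.

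PAs are condensed tannins, chains of flavan-3-ol units from grape skin and seed that bind proteins and adsorb to the surface of yeast cells. A yeast cell in stationary phase has stopped dividing and has lowered the synthesis of ribosomes and proteins, so its RNA pool differs from that of growing cells. A normalized count is the number of reads of a gene divided by a factor for the depth of its library. It measures a level relative to the other genes of the library, so fewer transcripts of a gene and more transcripts of other genes cannot be told apart. The deposited tables list genes under running numbers, and neither these tables nor the reference annotation pairs the numbers with gene symbols. The functions of the 100 genes were therefore not analysed here.

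Of the 5859 genes, 5584 were eligible. Another 89 had a solved mean of 0 or less, including 71 that were at 0 in all 3 tables, and 186 had means above 0 but under 50 normalized counts in every group. The limit on the first step was met by 669 eligible genes (12.0%), and that on the second by 1322 (23.7%). Both were met by 101 genes (1.81%), whereas 171 genes (3.06%) were at least 1.5-fold higher at each step. One of the 101 genes was identified from the authors' own comparison as PUT4, a proline permease of the plasma membrane. It belongs to the genes treated by name in the study and was left out, giving the 100 genes described. All shares are of eligible genes, and since the limits themselves set these counts, nothing is read from them.

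The 100 genes had a median of 4137 normalized counts at 0 g/L, 1743 at 0.1 g/L and 755 at 1.0 g/L PAs. The 5584 eligible genes had medians of 1318, 1334 and 1443 normalized counts at the same concentrations. Without PAs the median of the 100 genes lay above that of the eligible genes, and at 1.0 g/L it lay below. The limits favour this order and the ranks below, since they require at least a 2.25-fold difference between 0 and 1.0 g/L. Their levels at 0 g/L were spread between 110.8 and 97465 normalized counts, those at 0.1 g/L between 64.5 and 49862, and those at 1.0 g/L between 24.8 and 20272. At 0 g/L, 62 of the 100 genes were among the highest 25% of the eligible genes and 8 among the lowest 25%. At 0.1 g/L these numbers were 29 and 15, and at 1.0 g/L they were 12 and 48.

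**Figure D1:**
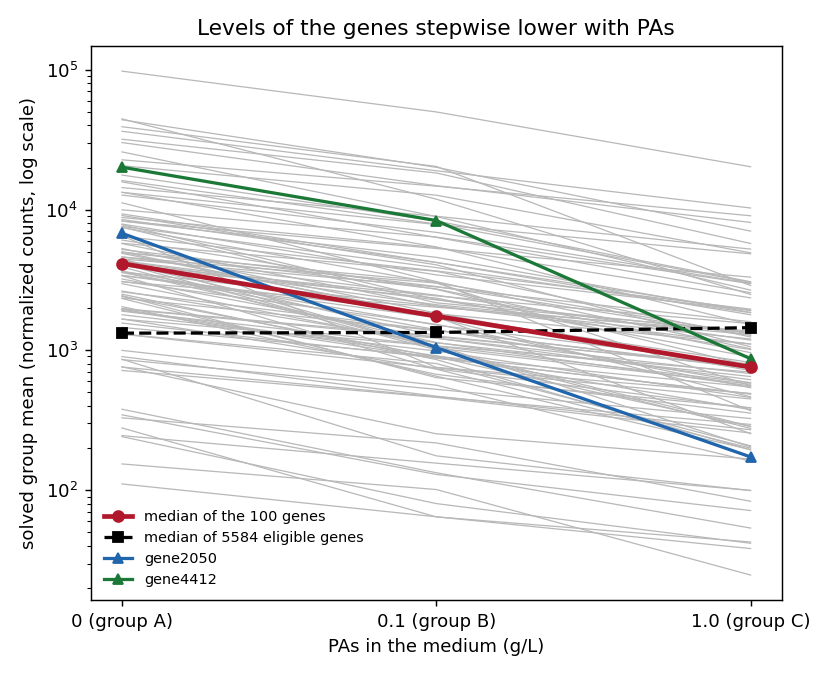
Solved group mean in normalized counts (vertical log axis) by PAs concentration (horizontal axis, g/L). Each grey line is 1 of the 100 genes, red circles are their median (4137, 1743 and 755), black squares are the median of the 5584 eligible genes (1318, 1334 and 1443), and triangles mark gene2050 and gene4412. The median of the 100 genes is above that of the eligible genes at 0.1 g/L PAs and below it at 1.0 g/L.

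At the first step, the level at 0.1 g/L PAs was between 11.5% and 66.2% of that at 0 g/L, with a median of 49.4%. The median difference was 2.02-fold, the central 50% of the genes lay between 1.71-fold and 2.78-fold, and the largest was 8.67-fold. At the second step, the level at 1.0 g/L was lower than at 0.1 g/L by a median of 2.12-fold, with the central 50% between 1.74-fold and 2.87-fold and a largest value of 9.66-fold. On the log2 scale the median ratio was -1.02 for 0.1 over 0 g/L and -1.09 for 1.0 over 0.1 g/L, beside medians of 0.05 and 0.04 over all eligible genes.

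Single genes divided the difference between the steps in different ways. In 53 of the 100 genes the second step was the larger fold, and in 47 the first. In 44 genes the folds of the steps were within 1.2 times of each other. In 32 genes the second fold was over 1.2 times the first, and in 24 genes the first was over 1.2 times the second. Both steps reached 2-fold in 31 genes, the first step alone did so in 20, the second alone in 22, and neither did in 27. Both steps reached 3-fold in 7 genes. These numbers depend on the scale of the tables: under the rescalings described with the precision of the means, the second step was the larger in 59 (groups rescaled) or 71 (tables rescaled) of the 100 genes.

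**Figure D2:**
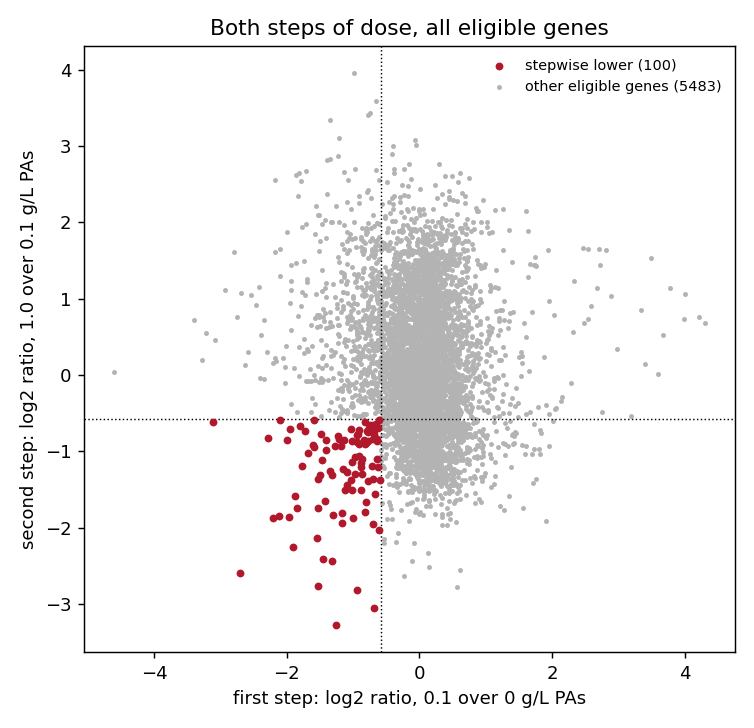
The log2 ratio of 0.1 over 0 g/L PAs (horizontal axis) against that of 1.0 over 0.1 g/L (vertical axis), from the solved group means. Red points are the 100 genes, grey points are the other 5483 eligible genes without PUT4, and dotted lines mark the limit of 1.5-fold. The red points fill the corner below both limits by construction, and 53 of them have the larger fold at the second step.

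Counted in normalized counts rather than folds, most of the decrease lay in the first step. The difference between 0 and 0.1 g/L made up a median of 64.8% of the difference between 0 and 1.0 g/L, with a range between 40.9% and 95.7%. It was over 50% in 94 of the 100 genes. The limits largely set this number, since equal steps of 1.5-fold already give 60.0% and any equal folds give over 50%. The share can be under 50% only where the first step is under 2-fold and the second is the larger fold. Nothing is therefore read from it about the lower concentration.

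From 0 to 1.0 g/L PAs the level was lower by a median of 4.80-fold, and the median gene kept 20.8% of its level without PAs. The limits allow no difference under 2.25-fold, and the smallest found was 2.29-fold. In 36 genes the difference was under 4-fold, in 44 between 4-fold and 8-fold, in 15 between 8-fold and 16-fold, and in 5 above 16-fold. The difference over both steps is the product of the folds of the steps, so larger folds at each step in the higher classes follow from the classes. The 36 genes under 4-fold had median differences of 1.69-fold and 1.75-fold at the first and second steps. The 44 genes of the next class had 2.26-fold and 2.33-fold, and the 15 after them 2.89-fold and 3.61-fold. The 5 genes above 16-fold had 3.73-fold and 6.02-fold. Their median level was 6796 normalized counts at 0 g/L, 1726 at 0.1 g/L and 253 at 1.0 g/L.

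Of the 100 genes, the 2 with the largest differences between 0 and 1.0 g/L are given by their numbers in the tables. For gene2050, the mean over groups A and B was 3918 normalized counts, that over A and C 3484 and that over B and C 606. These give 6796 normalized counts at 0 g/L, 1039.8 at 0.1 g/L and 173 at 1.0 g/L PAs. Its levels were 6.54-fold lower at the first step and 6.02-fold lower at the second, so that 15.3% of the level without PAs was left at 0.1 g/L and 2.54% at 1.0 g/L. Which of its steps is the larger depends on the scale of the tables. For gene4412, the means over groups A and B, A and C, and B and C were 14248, 10493 and 4622 normalized counts. They give 20118 normalized counts at 0 g/L, 8377 at 0.1 g/L and 867 at 1.0 g/L. It was 2.40-fold lower at the first step and 9.66-fold lower at the second, the largest second step of the 100 genes.

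The median difference was somewhat larger in the 2 upper classes of level without PAs. For the 15 genes under 1000 normalized counts at 0 g/L, the median difference between 0 and 1.0 g/L was 4.55-fold. It was 4.54-fold for the 46 genes from 1000 to 5000, 5.02-fold for the 28 genes from 5000 to 20000, and 5.54-fold for the 11 genes of 20000 or more. Within each of these classes the genes differed more widely, for example between 2.51-fold and 23.2-fold in the 11 most abundant. In the other classes, from low to high level, the largest difference was 8.64-fold, 19.8-fold and 39.3-fold. From the lowest class to the highest, the median second step was 1.77-fold, 1.90-fold, 2.30-fold and 2.85-fold. The median first step was 1.77-fold, 2.01-fold, 2.17-fold and 1.955-fold. These differences between classes were not tested.

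Together the 100 genes took 4.05% of all normalized counts at 0 g/L, 1.63% at 0.1 g/L and 0.777% at 1.0 g/L PAs. Their summed means were 827108, 391474 and 160999 normalized counts. The total over all genes was 20424687 at 0 g/L, 24092194 at 0.1 g/L and 20724190 at 1.0 g/L, so the share at 0.1 g/L also carries a higher total. The 5 genes most abundant at each concentration held 31.6%, 32.6% and 34.0% of the sums at the 3 concentrations. They were picked at each concentration anew and were not the same 5 genes throughout. The most abundant single gene had 97465 normalized counts at 0 g/L, 49862 at 0.1 g/L and 20272 at 1.0 g/L.

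A solved mean is a sum of 2 table means less the third, so its precision depends on how well the tables share a scale. A shift of 1% in the mean over A and B moves the level at 1.0 g/L by a median of 3.56%, and by 22.7% in gene2050 and 16.4% in gene4412. It exceeds 10% in 7 of the 100 genes. A shift of the A and C mean by 1% moves the level at 0.1 g/L by a median of 1.24%.

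The scales were compared in the few genes with reads in 1 group only. Reads of group A weighed 1.01 times as much in the table with B as in that with C (median of 4 genes, between 0.974 and 1.02). Reads of group B weighed 0.965 times as much in the table with A as in that with C (4 genes, between 0.962 and 0.965). Reads of group C weighed 1.01 times as much in the table with A as in that with B (5 genes, between 0.996 and 1.01). Over the genes with at least 50 normalized counts in every table, the median ratio of a table mean to the mean of the 3 tables was 1.0 for A and B, 1.016 for A and C and 1.015 for B and C. Each table averages different groups, so this second ratio can also carry differences in level between groups. The values with the tables rescaled share this limit. The largest mismatch, 0.965 for reads of group B, is well beyond the 1% of the shifts, so the shifts do not bound it. For this reason 2 rescalings were made, by group with the first ratios and by table with the second.

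The 100 genes were lower at 1.0 than at 0 g/L by a median of 4.79-fold with the groups rescaled and 5.11-fold with the tables rescaled, against 4.80-fold without rescaling, and their means all stayed above 0. The difference moved by over 1.1 times in 1 gene with the groups rescaled and in 21 genes with the tables rescaled. It moved by over 1.5 times in 1 gene, gene2050, with the tables rescaled. With the groups rescaled, gene2050 had 6774 normalized counts at 0 g/L, 1020.3 at 0.1 g/L and 195 at 1.0 g/L, a difference of 34.8-fold. With the tables rescaled it had 6749, 1085 and 109.9 normalized counts, a difference of 61.4-fold, against 39.3-fold without rescaling. Its first step was then 6.22-fold and its second 9.87-fold, whereas with the groups rescaled they were 6.64-fold and 5.24-fold. For gene4412 the difference was 24.1-fold with the groups rescaled and 31.4-fold with the tables rescaled, against 23.2-fold, and its second step was the larger in each case. Over both rescalings and shifts of 1% in any 1 table, the log2 ratio of 1.0 over 0 g/L lay between -5.94 and -5.00 for gene2050 and between -4.97 and -4.31 for gene4412.

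**Figure D3:**
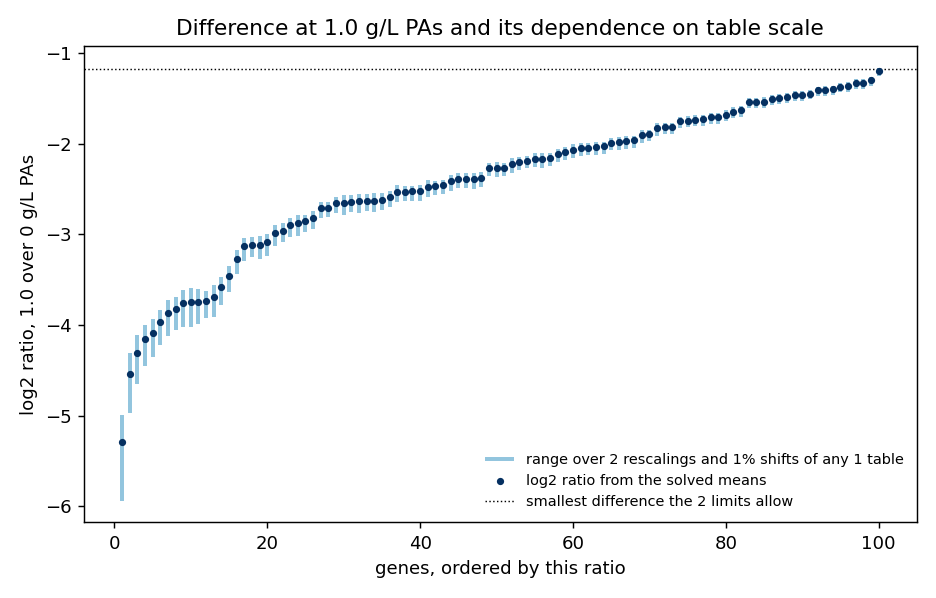
Log2 ratio of 1.0 over 0 g/L PAs (vertical axis) for the 100 genes, ordered from the largest difference to the smallest. Dark points are the ratios from the solved means, and light bars span the values under both rescalings and when any 1 of the 3 table means is shifted by 1% up or down. The bar is longest for gene2050, between -5.94 and -5.00, and short for the genes near the smallest difference that the limits allow (dotted line).

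The fold limits had genes close to them on both sides, whereas the limit of 50 normalized counts lay in a gap. The genes just inside the limit of the first step had folds of 1.51, 1.517 and 1.52, and those just outside, with the second step met, 1.493, 1.492 and 1.49. At the second step the nearest genes inside had folds of 1.509, 1.511 and 1.513, and those outside, with the first step met, 1.484, 1.474 and 1.469. Including those just outside, 28 genes met the second step with a first step between 1.4-fold and 1.5-fold, and 16 met the first with a second step in that range. Under the limit on the level, 7 genes met both steps with no mean of 50 normalized counts. The highest of them had 36.6 normalized counts at 0 g/L, 15.9 at 0.1 g/L and 4.77 at 1.0 g/L. The lowest gene inside had 110.8, 64.6 and 38.3 normalized counts.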

How the data were processed

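RNA of 9 libraries, 3 for each of groups A, B and C, was sequenced in the study. Per the labels, the authors used Trimmomatic 0.30, HISAT2 2.0.1, HTSeq 0.6.1 and DESeq. The reads were aligned to the S288C genome of NCBI, whose build is not given in the sources used here. The deposited signal of each of the 3 tables is the mean normalized count over the 6 libraries of 2 groups, normalized in each table separately. The other 5 columns of values hold the authors' own comparison (fold change, its error, a statistic and p-values), and none of their values enters a result. They served only to look up by hand which gene within the limits was PUT4. The match set for this purpose, within 0.1 of a log2 fold change of the 42 genes named in the study, fitted up to 381 genes to 1 name and matched 0 of the 42 names to a single gene. For 1 of the names it fitted no gene. The identity of PUT4 thus rests on the authors' comparison, not on the solved means.

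With x, y and z the means over A and B, A and C, and B and C, the group means were x + y - z, x + z - y and y + z - x. Limits were a fold of 1.5 a step and a level of 50 normalized counts, with no pseudocount. The members and limits were chosen with earlier results of these data known. The 2 genes named were the largest differences between 0 and 1.0 g/L among members with at least 200 normalized counts at 0 g/L. The code that solves the means and applies the limits was checked on simulated means. These shared a common scale across the tables, so the check does not cover scale differences between them. Genes read in 1 group only gave a ratio of scales for each group, not for each table as planned, and were used in that way. Values of single libraries were not analysed here, so no dose comparison was tested and no replicate was left out. Alternatives were other folds, levels and scales of the tables, a pseudocount, and other ways of leaving genes out. Shifts of 1% in a table and division by the median fold were chosen after seeing the data. Calculations ran in Python 3.11.15 with numpy 2.4.6, pandas 2.3.3 and matplotlib 3.10.9.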

Additional observations from a re-analysis of the deposited data

How the results depend on the processing

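With the fold limit lowered by 0.25, 276 genes met both steps, including the 100 described, and with a limit of 2-fold 31 genes did, all among the 100. Leaving out every gene whose ratio lay within 0.1 on the log2 scale of a fold change printed for a gene of the study left 38 genes, and this criterion removes genes by their ratio alone. With a level limit of 10 or 200 normalized counts, or none, the number was 104, 98 or 107. It was 96 with a pseudocount of 10. With PUT4 kept it was 101, and with solved means of 0 or less kept as 0 it was 100. Rescaling the tables by their median ratio gave 113 genes, of which 99 were among the 100, and rescaling the groups by genes read in 1 group only gave 98, of which 97 were. Dividing each fold by its median over the eligible genes gave 117, including all 100. With 1 table shifted by 1% the number was between 95 and 108. Under all of these scalings and shifts 93 of the 100 genes stayed within the limits, including 19 of the 20 that were at least 8-fold lower at 1.0 than at 0 g/L.
No paired analysis was possible because the tables hold means over 6 libraries and no value of a single library. For the same reason no replicate could be left out. The depth of the libraries was not computed here. The study lists the clean reads of each library and the correlation between replicates, which averaged lowest in group C. Neither gives the spread of a single gene between replicates. The precision of a low level, such as the 24.8 normalized counts of the lowest gene at 1.0 g/L PAs, is therefore not known.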

Other observations

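Among the 100 genes, 5 pairs carried consecutive numbers in the tables. Of the 177 eligible genes whose number was 1 above or below that of 1 of the 100, 10 were themselves among the 100 (5.65%), beside 1.79% of all eligible genes. The files do not say what order the numbers follow, so whether such pairs lie side by side in the genome was not tested, and neither was whether they share reads. The genes of a pair did not have the same level. At 0 g/L PAs their levels were 1.16, 1.94, 2.57, 4.74 and 131 times apart. In the pair that was 131 times apart, the more abundant gene was gene4412, at 20118 normalized counts, and the other had 153.9. The more abundant one was 23.2-fold lower at 1.0 than at 0 g/L, and the other 6.20-fold lower.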
